A study of Mus musculus with 8 samples.

Results

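The genes described here are 10 that encode matrix molecules and secreted guidance cues of the glial scar: the lecticans aggrecan (Acan), brevican (Bcan), neurocan (Ncan) and versican (Vcan), the membrane proteoglycans Cspg4 (NG2) and Cspg5 (neuroglycan C), the tenascins Tnc and Tnr, and the class 3 semaphorins Sema3a and Sema3c. They were chosen by name and not by a filter on their values, though with earlier results of these data known. They are 10 of the 21848 genes listed in each matrix. Each of them was found in all 8 matrices, and each was measured in at least 1 cell class. Lecticans bind hyaluronan at one end and tenascins at the other, and so tie the pericellular matrix into a mesh. Their chondroitin sulfate chains repel growing axons, in part through the receptor phosphatases PTPσ and LAR. Class 3 semaphorins collapse or steer growth cones through neuropilins and plexins, and after injury to the brain or spinal cord all of these molecules are known as components of the tissue that regrowing axons meet.

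Single-cell RNA sequencing was performed on injured mouse cortex 6 days after photothrombosis (PT), a light-induced cortical ischemia. Control mice received saline and fibrinogen-depleted mice received 2.4 U ancrod per day, a snake venom enzyme that removes fibrinogen from the blood, both through subcutaneous osmotic minipumps placed 2 days before PT. The groups held 4 mice each, with 1 library per mouse, and mice 1 to 3 of each group belonged to batch 1 and mouse 4 to batch 2. All mice were injured, so that no uninjured cortex was measured. The sample labels give Bl/J6 as genotype and female as sex, whereas the study's methods name C57BL/6N animals of either sex, a difference that could not be resolved. After removal of the meninges the lesion was dissociated along with adjoining spared cortex, myelin was depleted with beads, and no cell type was enriched.

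The libraries held 97861434 to 122758649 UMIs in control mice and 126682918 to 142139441 in ancrod mice. Droplets with at least 2000 UMIs and less than 20% mitochondrial UMIs were taken as cells, and after removal of doublets 44072 cells remained, 4874 to 5962 per mouse, with median UMI counts of 10476 to 14121 in control and 13493 to 17363 in ancrod mice. Any pair of libraries shared 3 to 14 cell barcodes, which touched 514 cells in all. The cells were clustered without the 10 genes and named from marker genes, and every name is given as "-like" because it rests on those markers. In 14 of the 15 classes described at least 5 markers reached their highest level in the class itself. The exception was the reactive astrocyte-like class, where 2 of 12 did, although 10 of these 12 were higher there than in homeostatic astrocyte-like cells. No cluster was named oligodendrocyte-like, and 8872 cells (20.1%) stayed unnamed. The precursor-like class was small, with 152 cells and 6 to 29 per mouse, and ancrod mouse 2, with 6 such cells, was left out of its levels and tests but counted in the shares of UMIs. Neuron-like cells were absent in control mouse 3.

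Levels are given as CPM, the UMIs of a gene per 1000000 UMIs of a class in a mouse, as mean ± SD over the mice with at least 10 cells of that class. The libraries count the 3′ ends of transcripts and so carry no correction for gene length, and levels are compared between classes within a gene only. The order of the classes is a description, and for neighbours in that order the number of mice with the same direction is given.

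Aggrecan (Acan, chromosome 7, 78702964 to 78764847, GRCm39), the lectican of perineuronal nets and cartilage, was the rarest of the 10 transcripts with 1651 UMIs in all cells. Its mean level was highest in precursor-like cells at 20.6 ± 8.80 CPM (SD, n = 7 mice), ahead of smooth muscle-like cells at 11.9 ± 15.6 CPM (n = 8) in 4 of 7 mice and fibroblast-like cells at 9.50 ± 18.0 CPM (n = 8). The order of these classes did not hold beyond the spread between mice. Smooth muscle-like cells held 29 Acan UMIs, of which 10 lay in 1 cell of control mouse 1 and 11 in 1 cell of ancrod mouse 4. Of the Acan UMIs, 1341 came from ancrod mouse 4 alone, and 1310 of them lay in 122 of its 510 fibroblast-like cells. In the other 7 mice fibroblast-like cells held 1 to 90 Acan UMIs per mouse. No Acan UMI was found in homeostatic or reactive astrocyte-like cells of any mouse.

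Brevican (Bcan, chromosome 3, 87894835 to 87910177), a lectican made by astrocytes and bound to their surface or shed, was highest in homeostatic astrocyte-like cells at 924 ± 101 CPM (lowest 771, median 936, highest 1032, n = 8). Precursor-like cells followed with 311 ± 73.4 CPM (n = 7) and reactive astrocyte-like cells with 287 ± 50.2 CPM (n = 8). The first place held in 7 of 7 mice, and the next neighbours could not be ordered, since precursor-like cells were higher in 3 of 7 mice. Every other class lay at 6.81 CPM or lower. Homeostatic astrocyte-like cells carried 70.8 ± 9.77% of all Bcan UMIs of a mouse (n = 8). In cells thinned to 2000 UMIs, 81.6% of homeostatic and 38.2% of reactive astrocyte-like cells held a Bcan UMI (97.7% and 70.5% unthinned), beside 0.292% of microglia-like cells (1.82% unthinned), which should lack the gene.

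Neurocan (Ncan, chromosome 8, 70538926 to 70573523), the lectican known to accumulate around cortical wounds, was spread over glial classes. Precursor-like cells held 481 ± 241 CPM (lowest 184, median 523, highest 788, n = 7), reactive astrocyte-like cells 394 ± 91.1 CPM (n = 8) and homeostatic astrocyte-like cells 286 ± 71.7 CPM (n = 8). Precursor-like cells exceeded reactive astrocyte-like cells in 4 of 7 mice only, so that these neighbours were not separated, whereas reactive exceeded homeostatic astrocyte-like cells in 7 of 8. Most Ncan UMIs of precursor-like cells lay in their Serpina3n-led subcluster, described below. Neuron-like cells held 53.8 ± 14.9 CPM (n = 7). By number of UMIs the transcript lay in homeostatic (41.0 ± 11.9%) and reactive (37.4 ± 11.7%) astrocyte-like cells, and precursor-like cells contributed 8.79 ± 8.03%. In ancrod mice alone these astrocyte-like shares were alike, at 39.9 and 40.0%.

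Versican (Vcan, chromosome 13, 89803431 to 89890814), a lectican of precursors, mesenchyme and blood monocytes, was highest in precursor-like cells at 754 ± 79.1 CPM (lowest 642, median 783, highest 829, n = 7). Fibroblast-like cells held 335 ± 47.1 CPM (n = 8) and monocyte-like cells 226 ± 86.3 CPM (n = 8). Precursor-like cells exceeded fibroblast-like cells in 7 of 7 mice, and fibroblast-like exceeded monocyte-like cells in 7 of 8. Reactive and homeostatic astrocyte-like cells lay lower, at 54.2 ± 13.1 and 32.3 ± 5.60 CPM. Fibroblast-like cells were more numerous and held more UMIs per cell (median 42117.5) than precursor-like cells (median 18419.5), and 71.0 ± 16.7% of Vcan UMIs lay in them, against 6.80 ± 4.73% in precursor-like cells.

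Cspg4 (chromosome 9, 56772317 to 56807187), a transmembrane proteoglycan that marks pericytes and oligodendrocyte precursors, was highest in pericyte-like cells at 515 ± 63.6 CPM (n = 8), followed by smooth muscle-like cells at 292 ± 44.6 CPM (n = 8) and precursor-like cells at 124 ± 36.3 CPM (n = 7). Each step held in every mouse with both classes. Fibroblast-like cells had 17.3 ± 5.88 CPM and microglia-like cells 7.43 CPM, yet through their number microglia-like cells held 16.7 ± 5.60% of the Cspg4 UMIs beside 35.7 ± 12.05% in pericyte-like cells. Thinned to 2000 UMIs, 63.9% of pericyte-like and 0.751% of microglia-like cells had a Cspg4 UMI (90.4% and 4.53% unthinned).

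Cspg5 (chromosome 9, 110072851 to 110091644), a transmembrane proteoglycan of glia and neurons with an EGF-like domain, was high in all 3 macroglial classes. Homeostatic astrocyte-like cells held 1664 ± 119.9 CPM (lowest 1544, median 1603, highest 1879.8, n = 8), precursor-like cells 1454 ± 408 CPM (n = 7) and reactive astrocyte-like cells 962 ± 109.6 CPM (n = 8). The order of the first pair held in 5 of 7 mice and that of the next in 5 of 7 as well. When each cell was given equal weight the first places changed, with 1824 CPM in precursor-like and 1522 CPM in homeostatic astrocyte-like cells. Neuron-like cells held 87.5 ± 30.1 CPM.

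Tenascin C (Tnc, chromosome 4, 63878014 to 63965443), a matrix glycoprotein induced in wounds and tumours, was found at like levels in reactive astrocyte-like cells (134 ± 69.9 CPM, n = 8) and fibroblast-like cells (125 ± 62.7 CPM, n = 8), with reactive astrocyte-like cells higher in 5 of 8 mice. Either class took the first place depending on the setting: with each cell weighted equally the values were 65.8 CPM in reactive astrocyte-like and 106 CPM in fibroblast-like cells, and without control mouse 2 they were 117 and 121 CPM. Precursor-like cells held 66.1 ± 63.6 CPM (n = 7), homeostatic astrocyte-like cells 31.0 ± 22.4 CPM and pericyte-like cells 18.0 ± 8.91 CPM (both n = 8). Most Tnc UMIs of precursor-like cells lay in their Serpina3n-led subcluster, described below. Of all Tnc UMIs 63.5 ± 16.2% lay in fibroblast-like and 20.6 ± 10.2% in reactive astrocyte-like cells. The share of cells with a Tnc UMI after thinning was 12.5% in fibroblast-like and 7.51% in reactive astrocyte-like cells (49.2% and 25.5% unthinned), beside 0.0175% in microglia-like cells (0.298% unthinned).

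Tenascin R (Tnr, chromosome 1, 159351339 to 159759299), the tenascin of the central nervous system that crosslinks lecticans in perineuronal nets, was highest in precursor-like cells at 2465 ± 530.4 CPM (lowest 1807, median 2439, highest 3223, n = 7). Neuron-like cells followed with 589 ± 174 CPM (n = 7) and were lower than precursor-like cells in 6 of 6 mice with both classes. Reactive and homeostatic astrocyte-like cells had 67.3 ± 40.6 and 27.2 ± 10.2 CPM (n = 8), and outside glia and neurons no class reached 10 CPM. After thinning, 92.8% of precursor-like and 53.2% of neuron-like cells held a Tnr UMI (99.4% and 83.0% unthinned), against 0.0734% of microglia-like cells (0.693% unthinned). Precursor-like cells carried 68.2 ± 14.3% of all Tnr UMIs in control and 32.8 ± 22.3% in ancrod mice, and neuron-like cells 13.3 ± 9.44% and 39.5 ± 10.9% (n = 4 mice each). Without ancrod mouse 2, which had 6 precursor-like cells, the shares in ancrod mice were 43.2% in precursor-like and 40.7% in neuron-like cells (n = 3). Neuron-like cells numbered 0 to 31 per control and 42 to 178 per ancrod mouse, or 0.318 ± 0.261% and 1.66 ± 1.35% of cells, without overlap (two-sided exact permutation p = 0.0286, the smallest the design allows, adjusted p = 0.143 over 15 classes, 0.764 percentage points in batch 1 and 3.07 in batch 2). The difference between the groups in the shares of Tnr UMIs was not tested.

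Sema3a (chromosome 5, 13175288 to 13653578), a secreted repellent that acts through neuropilin 1 and A-type plexins, was found in fibroblast-like cells at 126 ± 27.1 CPM (lowest 94.8, median 126, highest 173, n = 8) and in neuron-like cells at 79.1 ± 20.5 CPM (n = 7), with fibroblast-like cells higher in 7 of 7 mice. Precursor-like cells held 3.98 ± 4.18 CPM from 12 UMIs. Fibroblast-like cells carried 91.9 ± 4.09% of its UMIs, the largest share held by 1 class for any of the 10 genes. After thinning, 19.0% of fibroblast-like cells had a Sema3a UMI (74.9% unthinned), beside 0.0371% of microglia-like cells (0.376% unthinned).

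Sema3c (chromosome 5, 17779219 to 17935648), a semaphorin that signals through neuropilins and plexin D1 and acts on vessels as well as axons, was an endothelial transcript here, at 686 ± 169 CPM in endothelial-like cells (lowest 471, median 668, highest 1001, n = 8). The next classes, precursor-like and neuron-like cells, held 24.1 ± 42.8 and 22.5 ± 23.7 CPM (n = 7 each), with 0 UMIs in 3 and 1 of the mice. Endothelial-like cells carried 57.2 ± 6.42% of the Sema3c UMIs and unnamed cells 40.0 ± 5.04%. Levels in free RNA were read from droplets with at most 100 UMIs. Its share of cell UMIs was estimated at 0.914 to 1.71% per mouse from homeostatic astrocyte and fibroblast markers. The estimate is the median, over these markers, of the level in microglia-like cells divided by the level in free RNA. It takes every UMI of these markers in microglia-like cells as free RNA. Each of the 10 genes had a lower mean in microglia-like cells (median depth 15766 UMIs) than the median over mice in that free RNA. The closest was Cspg4, with 7.43 and 10.5 CPM. Since the estimated share of free RNA was so small, comparing these levels cannot tell whether a microglia-like value came from it. The part of free RNA in the microglia-like values was not tested.

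**Figure D1:**
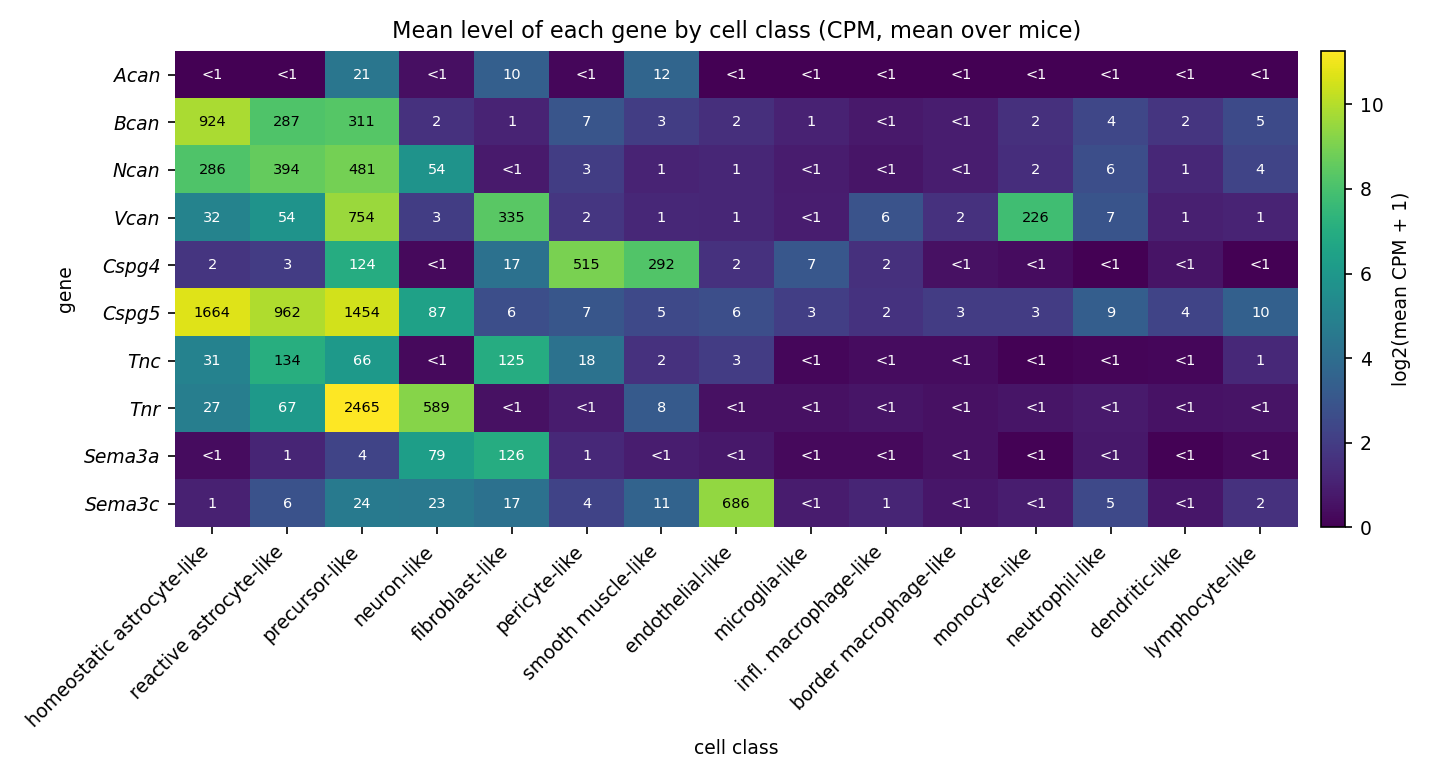
Heat map of the 10 genes (vertical axis) in 15 cell classes (horizontal axis), coloured by log2 of the mean CPM plus 1, with the mean CPM over mice printed in each cell. Bcan, Ncan and Cspg5 were high in astrocyte-like and precursor-like cells, Tnr in precursor-like and neuron-like cells, Cspg4 in mural cells, Sema3a in fibroblast-like and neuron-like cells and Sema3c in endothelial-like cells.

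**Figure D2:**
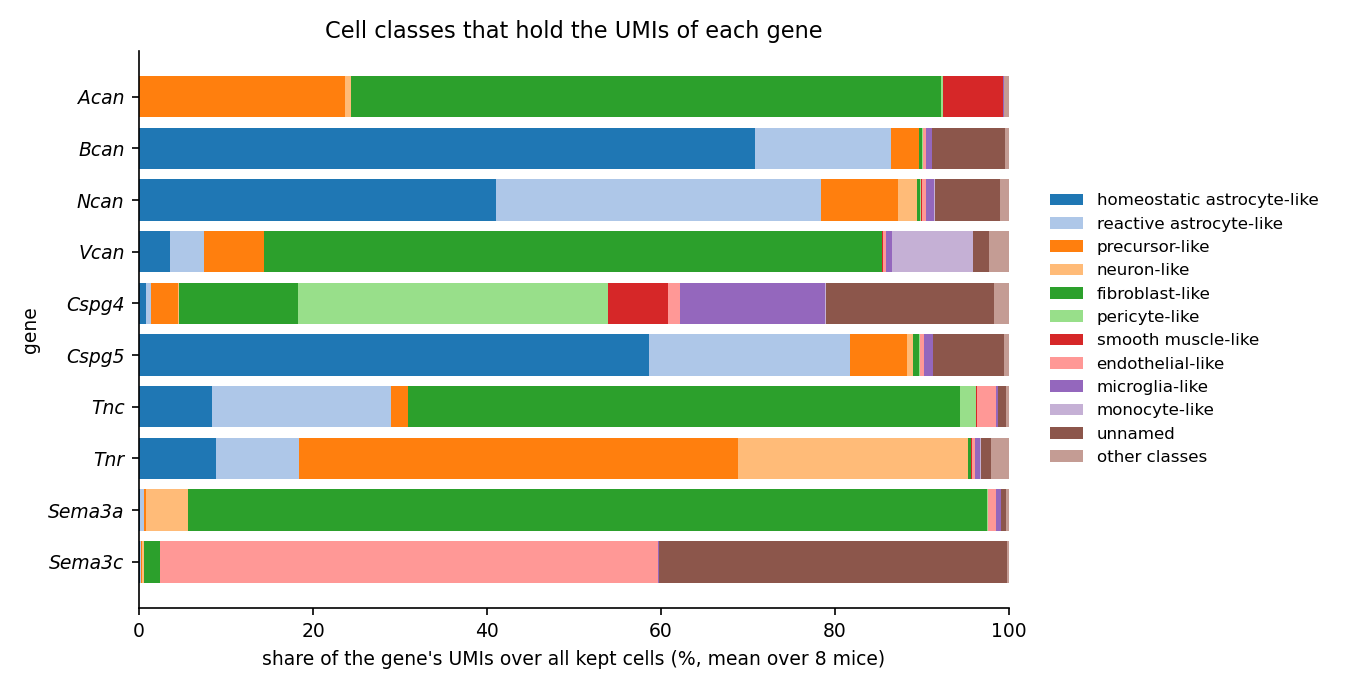
Stacked bars of the share of the UMIs of each gene (horizontal axis, percent, mean over 8 mice) that lay in each cell class (colours). Fibroblast-like cells held the largest share of Acan, Vcan, Tnc and Sema3a (63.5 to 91.9%), homeostatic astrocyte-like cells of Bcan, Ncan and Cspg5 (41.0 to 70.8%), and 1 other class each of Cspg4 and Sema3c. For Tnr the mean over all mice was 50.5% in precursor-like cells, which joins 68.2% in control with 32.8% in ancrod mice.

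The levels over the 15 classes were set beside those of every other gene of at least 20 CPM in some class (Pearson correlation of log2 of the mean CPM plus 1 over 15 classes, a description whose points share libraries and depth). The closest genes were Gpr37l1, Rfx4 and Ptprz1 for Bcan (r = 0.993, 0.991 and 0.990), Luzp2, Rgs20 and Rimklb for Cspg5 (r = 0.993, 0.989 and 0.987) and Lrtm2, Pou3f3 and Rimklb for Ncan (r = 0.983 to 0.985). Tnr was followed by Sez6, C1ql3 and Rprm (r = 0.969 to 0.986) and Sema3a by Cemip, which binds and degrades hyaluronan, Serinc2 and Spock3 (r = 0.972 to 0.989). Tnc was closest to Flnc, Pigyl and the growth factor gene Mdk (r = 0.955 to 0.960), Sema3c to Efna1, Kif26a and Clec14a (r = 0.928 to 0.949) and Cspg4 to Enpep, Ccdc160 and the sulfotransferase gene Chst3 (r = 0.906 to 0.919). The loosest matches were those of Acan with Ccn3, Trnp1 and Cpxm2 (r = 0.845 to 0.889) and of Vcan with Tnfaip6, Arpc1a and Ugdh (r = 0.789 to 0.830), where Tnfaip6 encodes a hyaluronan-binding protein and Ugdh makes a precursor of chondroitin chains.

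Reactive and homeostatic astrocyte-like cells of the same mice differed in opposite directions for different matrix genes: the abundant proteoglycans Bcan and Cspg5 were lower in reactive cells, and Ncan, Vcan, both tenascins and Sema3c were higher. Of the 10 genes 8 passed the filter on low counts, and edgeR's quasi-likelihood test with mouse as a block called 5 higher and 2 lower at an adjusted p under 0.05. The background for this contrast was 76.7% of 12314 genes called, 39.1% higher and 37.6% lower, so that a call on its own says little here and the sizes are what the genes add. The median log2 fold change of the 8 genes was 0.62, beside 0.02 over all genes tested. Acan, with 0 UMIs in both classes, and Sema3a, with 37 UMIs in reactive and 11 in homeostatic cells, were not tested.

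Bcan was 287 ± 50.2 CPM in reactive and 924 ± 101 CPM in homeostatic astrocyte-like cells, a log2 fold change of -1.70 (SE 0.09, edgeR adjusted p = 7.06e-12). Its highest reactive value (393) lay below its lowest homeostatic value (771), and it was lower in 8 of 8 mice. Cspg5 was also lower in 8 of 8 mice, by -0.80 on the log2 scale (SE 0.08, edgeR adjusted p = 3.58e-08), with 820 to 1169 CPM in reactive and 1544 to 1879.8 CPM in homeostatic cells. Ncan was 0.48 higher on the log2 scale (SE 0.13, edgeR adjusted p = 0.0031), in 7 of 8 mice, the exception being control mouse 3 with 253 CPM in reactive and 395 CPM in homeostatic cells. The ranges of Ncan overlapped between the classes (253 to 520.5 and 218 to 396 CPM). Vcan was 0.77 higher (SE 0.11, edgeR adjusted p = 5.12e-06), in 8 of 8 mice. The share of cells with a Vcan UMI was not higher with it, at 4.86 ± 2.94% of reactive and 5.30 ± 1.85% of homeostatic cells after thinning to 2000 UMIs (24.9% and 28.4% unthinned, n = 8).

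Tnc showed a log2 fold change of 2.23 (SE 0.29, edgeR adjusted p = 1.14e-06), from 31.0 ± 22.4 to 134 ± 69.9 CPM, and was higher in reactive cells in 7 of 8 mice. In the exception, control mouse 3, both classes held 37.1 CPM. Tnr was 1.20 higher (SE 0.26, edgeR adjusted p = 0.000326), in 7 of 8 mice, the exception being control mouse 4 with 36.6 CPM in reactive and 47.6 CPM in homeostatic cells. A Tnr UMI was found in 6.31 ± 2.14% of reactive and 4.93 ± 1.26% of homeostatic cells after thinning, and in 20.7% and 21.1% unthinned. Summed neuron markers in reactive cells were 79.7 to 110.3 CPM in control and 98.8 to 127 CPM in ancrod mice. In homeostatic cells they were 27.8 to 46.9 and 35.1 to 112 CPM. Their part in the Tnr value was not tested. Sema3c had the largest fold, 2.43 on the log2 scale (SE 0.33, edgeR adjusted p = 2.32e-06), in 8 of 8 mice, at low levels of 6.24 ± 3.88 against 1.07 ± 0.551 CPM. Summed endothelial markers were 20.6 to 35.1 CPM in reactive astrocyte-like and 16.6 to 30.6 CPM in homeostatic astrocyte-like cells, and their part in the Sema3c value was not tested. Cspg4 did not pass (log2 fold change 0.24, SE 0.32, edgeR adjusted p = 0.503). Reactive cells were shallower (median 6612.5 UMIs) than homeostatic cells (median 14105).

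The reactive astrocyte-like class was not uniform, and its subclusters carried different matrix genes. A subcluster of 671 cells led by Lcn2, Igfbp2 and Mrps6 held 415 CPM Bcan and 1476 CPM Cspg5 but only 13.8 CPM Tnc and 15.1 CPM Vcan (means over 8 mice), both below the means of all homeostatic cells (31.0 and 32.3 CPM). It was the largest subcluster of the class, and the other 3 all lay above the homeostatic mean of Tnc. The dividing subcluster of 284 cells, led by Ube2c, Top2a and Cenpf, held 147 CPM Bcan, 598 CPM Cspg5, 179 CPM Tnc and 88.0 CPM Vcan. Against the Lcn2-led cells Tnc and Vcan were higher in 8 of 8 mice and Cspg5 was lower in 8 of 8. The subcluster led by Slc5a3, Tm4sf1 and Tgm1 (169 cells) had 470.1 CPM Ncan and 133 CPM Tnc, both above the Lcn2-led cells in 6 of 6 mice with both. A small subcluster of 94 cells led by Myoc, Fxyd6 and Slc38a1 held 253 CPM Tnc and 496 CPM Tnr, above the Lcn2-led cells in 5 of 5 mice for either gene. Among homeostatic cells, the subcluster led by Hsd11b1 and Mfsd2a (464 cells) held 1181 CPM Bcan, more than the Lcn2-led cells in 8 of 8 mice.

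Precursor-like cells were set apart from astrocyte-like cells by Tnr, Cspg4, Vcan and Acan. All 10 genes passed the filter, and edgeR with mouse as a block called 5 higher (Acan, Vcan, Cspg4, Tnr and Sema3a) and 1 lower (Bcan) over the 7 mice with enough cells. The background was 45.3% of 12035 genes called, 22.4% higher and 22.9% lower, and the median log2 fold change was 2.16 for the 10 genes and 0.01 for all genes. Tnr was 2465 ± 530.4 CPM in precursor-like and 42.0 ± 11.2 CPM in astrocyte-like cells (log2 fold change 5.71, SE 0.19, edgeR adjusted p = 3.07e-10). Cspg4 was 124 ± 36.3 against 2.48 ± 0.890 CPM (5.40, SE 0.25, edgeR adjusted p = 3.67e-09). Vcan was 754 ± 79.1 against 40.7 ± 9.38 CPM (4.05, SE 0.15, edgeR adjusted p = 7.41e-10). For each of these genes the precursor-like cells were higher in 7 of 7 mice and the ranges did not overlap.

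Acan had 70 UMIs in 146 precursor-like cells and 0 in 2566 astrocyte-like cells of the same mice, which held 44089427 UMIs. A floor of 3 UMIs over these pooled astrocyte-like cells is 0.0680 CPM. The mean Acan level of precursor-like cells over mice, 20.6 CPM, was 302 times that floor (8.24 on the log2 scale). This bound holds for the mean only and leaves out the spread between mice. The precursor-like cells of ancrod mouse 3 held 1 Acan UMI. The values per mouse were 21.1, 17.4, 24.6 and 29.9 CPM in control mice 1 to 4 and 26.1, 2.71 and 22.1 CPM in ancrod mice 1, 3 and 4, so that ancrod mouse 3 was the low one. Sema3a rested on 12 UMIs in precursor-like cells (log2 fold change 2.41, SE 0.80, edgeR adjusted p = 0.0270), and the call was lost when control mouse 2, control mouse 3 or ancrod mouse 4 was left out (edgeR adjusted p = 0.0709, 0.0947 and 0.0522). Summed neuron markers in precursor-like cells were 194 to 335 CPM in control and 159 to 279 CPM in ancrod mice. In either astrocyte-like class they reached at most 127 CPM. Their part in the Sema3a value was not tested. Bcan was lower in precursor-like cells in 7 of 7 mice, by -1.29 on the log2 scale (SE 0.20, edgeR adjusted p = 0.000157). Ncan (0.21, SE 0.21), Cspg5 (-0.14, SE 0.17), Tnc (-0.54, SE 0.45) and Sema3c (1.91, SE 1.01) did not pass, with edgeR adjusted p of 0.148 to 0.521. Astrocyte markers summed to 2056 CPM in precursor-like cells of ancrod mice and 2502 CPM in those of control mice, against 26652 and 26370 CPM in homeostatic astrocyte-like cells. The astrocyte water channel gene Aqp4 was relatively higher, at 450.0 CPM in precursor-like cells against 1356 CPM in homeostatic and 1274 CPM in reactive astrocyte-like cells when pooled over mice, and it had a UMI in 50.0% of the precursor-like cells. The part of such RNA in the Bcan, Ncan and Cspg5 levels of precursor-like cells was not tested. Summed endothelial markers in precursor-like cells ran from 41.7 to 1026 CPM over mice, and their part in the Sema3c level there was not tested.

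The promoters of the 4 genes that were highest above astrocyte-like cells are shown because all 4 transcripts were higher in precursor-like cells, although the other classes that held them differed. The sequences are the 250 bases before the transcription start, 5′ to 3′ on the strand of the gene, from RefSeq on GRCm38.p6, and capitals mark matches on either strand to a GC box (GGGCGG) or a SOX core (ACAAAG). The windows are chr7:79052976-79053225 (plus strand) for Acan, chr13:89742513-89742762 (minus strand) for Vcan, chr9:56864854-56865103 (plus strand) for Cspg4 and chr1:159523519-159523768 (plus strand) for Tnr.
Acan: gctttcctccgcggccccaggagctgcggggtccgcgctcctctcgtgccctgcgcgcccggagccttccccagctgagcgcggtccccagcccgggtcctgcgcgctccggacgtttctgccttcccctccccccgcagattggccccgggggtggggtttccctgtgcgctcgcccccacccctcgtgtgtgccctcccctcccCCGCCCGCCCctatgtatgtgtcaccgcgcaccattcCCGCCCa
Vcan: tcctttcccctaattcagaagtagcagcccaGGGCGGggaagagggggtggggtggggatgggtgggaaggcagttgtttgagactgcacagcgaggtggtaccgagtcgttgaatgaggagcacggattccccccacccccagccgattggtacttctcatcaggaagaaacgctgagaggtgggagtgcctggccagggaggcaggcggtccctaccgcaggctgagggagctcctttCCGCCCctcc
Cspg4: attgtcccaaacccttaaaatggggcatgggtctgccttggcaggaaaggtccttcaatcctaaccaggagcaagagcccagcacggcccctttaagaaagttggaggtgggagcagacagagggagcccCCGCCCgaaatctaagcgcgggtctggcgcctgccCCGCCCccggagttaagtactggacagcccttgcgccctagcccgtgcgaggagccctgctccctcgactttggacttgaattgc
Tnr: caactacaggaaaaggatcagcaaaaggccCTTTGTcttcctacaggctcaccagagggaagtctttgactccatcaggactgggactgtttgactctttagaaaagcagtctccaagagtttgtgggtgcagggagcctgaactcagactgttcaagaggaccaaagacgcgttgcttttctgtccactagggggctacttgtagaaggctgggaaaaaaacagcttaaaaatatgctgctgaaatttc
Acan had 3 GC box matches, of which 1 pair overlapped in part, Vcan and Cspg4 had 2 each, and Tnr had none and 1 SOX core. Of 32851 mouse promoter windows of this length, 32.7% held the GC box and 16.5% the SOX core. An E-box of the kind bound by OLIG proteins (CAGATG, in 14.4% of windows) and an AP-1 site (TGANTCA, in 6.75%) were searched as well and are not among these 4 windows. Promoter windows were found for 9 of the 10 genes.

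Within the precursor-like class 3 subclusters differed in the same genes. Their values are pooled over mice because few mice held enough cells of each. The 58 cells led by Rtl4, Alk and Thsd7b held 4733 CPM Tnr, 1087 CPM Vcan and 275 CPM Cspg4 but 157 CPM Ncan. The 51 cells led by Serpina3n, A2m and Glis3 held 746 CPM Ncan and 110.5 CPM Tnc, with 1858 CPM Tnr and 34.7 CPM Cspg4. They held 1310 Ncan, 194 Tnc and 49 Acan UMIs. The Rtl4-led cells held 122, 2 and 16, and the Spc24-led cells 184, 17 and 5. Serpina3n is also a marker in the list for reactive astrocyte-like cells. The part of doublets left among the Serpina3n-led cells was not tested. The 43 dividing cells led by Spc24, Nuf2 and Pbk lay between them for Ncan (236 CPM) and Cspg4 (149 CPM) and were the lowest of the 3 for Tnr (1388 CPM) and Vcan (546 CPM, against 686 CPM in the Serpina3n-led cells). These pooled values have no replicate check.

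Fibroblast-like clusters differed in Vcan, Tnc and Sema3a. A small cluster of 103 shallow cells led by Apod, Mdk and Fabp4 (median 3588 UMIs) held 81.2 CPM Vcan, 45.9 CPM Tnc and 19.4 CPM Sema3a when pooled over mice, and only 2 mice had 10 of its cells. The cluster led by Penk, Ccn3 and Slc4a10 (357 cells) held 164 CPM Vcan and 22.5 CPM Tnc, below the clusters led by Cemip (853 cells, 352 and 138 CPM) and by Col1a1 and Col1a2 (686 cells, 440.2 and 145 CPM) in 7 of 7 mice for each pair and gene. Sema3a had the reverse order, at 175 CPM in Penk-led cells, 136 CPM in Cemip-led cells and 118 CPM in Col1a1-led cells, but only in 5 of 7 and 6 of 7 mice. Acan was almost absent from Cemip-led and Penk-led cells (11 and 6 UMIs) and lay in the Col1a1-led cluster (836 UMIs) and the dividing Mmp3-led cluster (679 UMIs). These are counts pooled over mice, and ancrod mouse 4 alone gave 1310 of the Acan UMIs of fibroblast-like cells. Among vessel clusters Sema3c formed a series, with 1233 CPM in 2114 unnamed cells led by Gkn3 and Sema3g, 1134 CPM in endothelial-like cells led by Hmcn1 and Fmo2, 951 CPM in those led by Ly6c1, 560.0 CPM in those led by Il1r1 and Ackr1, a gene of venules, and 148 CPM in those led by Selp. The Gkn3-led and the Ly6c1-led cells each exceeded the Il1r1-led cells, and these exceeded the Selp-led cells, in 8 of 8 mice.

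**Figure D3:**
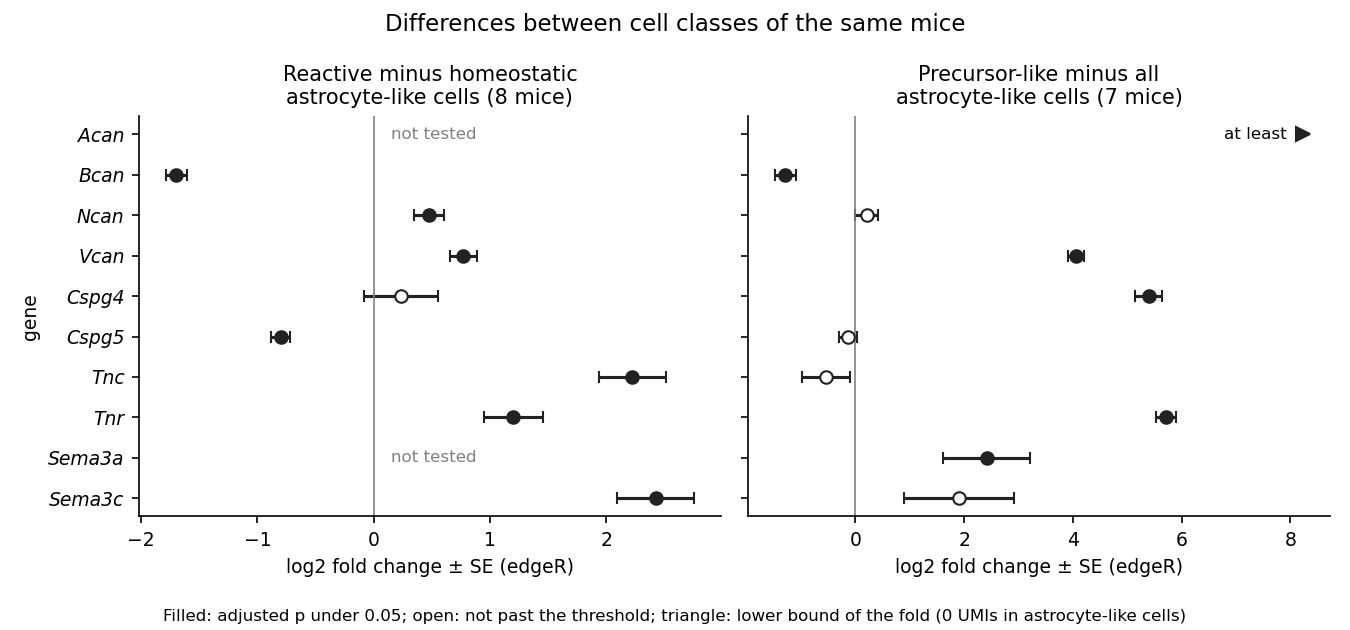
Log2 fold changes with SE (horizontal axis, edgeR) of each gene (vertical axis) between reactive and homeostatic astrocyte-like cells in 8 mice (left) and between precursor-like and all astrocyte-like cells in 7 mice (right). Filled points passed an adjusted p under 0.05, open points did not, and the triangle is the lower bound of 8.24 for the mean of Acan over mice. Bcan lay left of 0 in both panels, and Tnr and Vcan right of 0 in both.

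**Figure D4:**
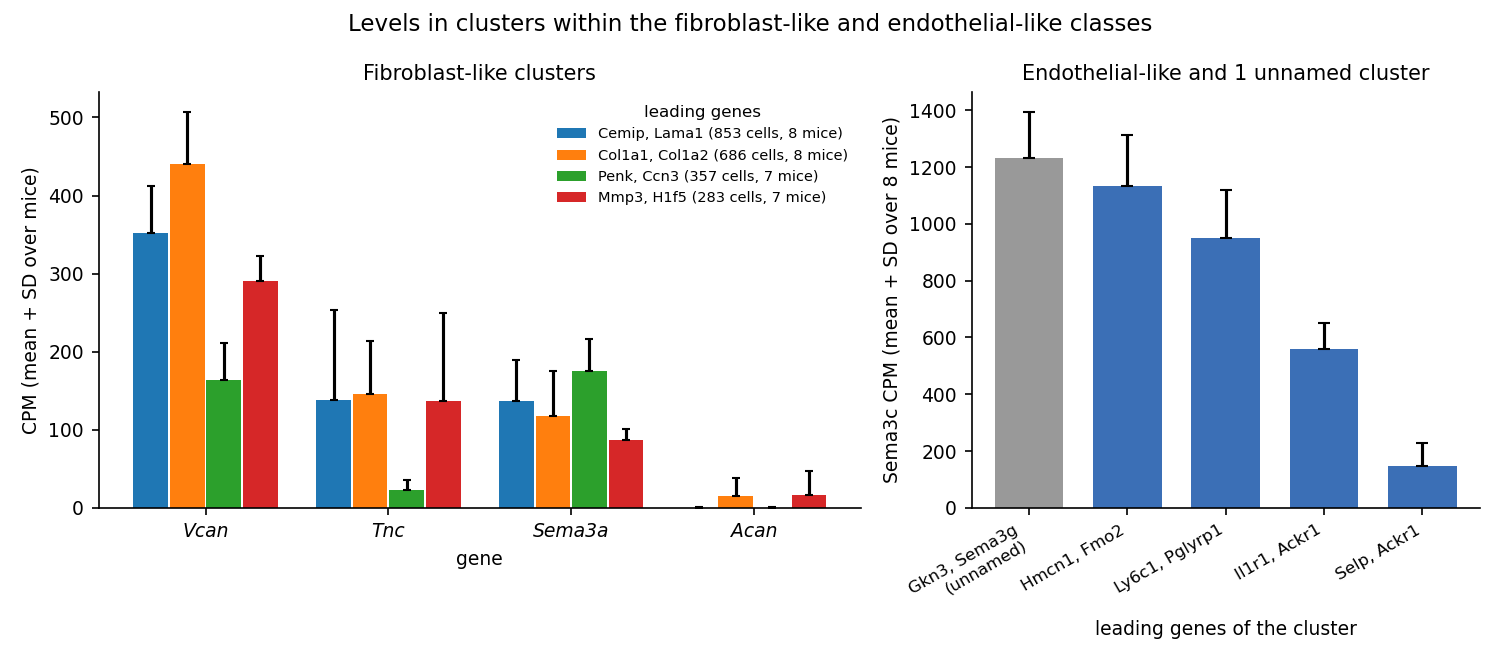
Bars give mean CPM over mice, with the SD upwards, of Vcan, Tnc, Sema3a and Acan in the 4 larger fibroblast-like clusters (left) and of Sema3c in 4 endothelial-like clusters and 1 unnamed cluster (right, grey). Among these 4 clusters Penk-led cells had the lowest mean Vcan (164 CPM) and Tnc (22.5 CPM), and Sema3c ran from 1233 CPM in Gkn3-led to 148 CPM in Selp-led cells.

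Whether fibrinogen depletion altered these genes was asked in each class with edgeR on UMIs summed per mouse, 4 ancrod against 4 control mice. None of the 55 gene and class pairs that could be tested in 11 classes passed an adjusted p under 0.05, where 0.00174% of 114824 tests over all genes did. At an unadjusted p under 0.05 there were 4 pairs, beside 5.98% of all tests, and they lay in fibroblast-like, reactive astrocyte-like, microglia-like and monocyte-like cells, where 14.7%, 4.13%, 3.69% and 4.43% of genes had such a p. DESeq2 called 0 of the 53 pairs for which it gave an adjusted p. The log2 fold changes ran from -1.11 to 1.68 with a median of 0.22, 37 above 0 and 18 below, and the edgeR adjusted p from 0.324 to 1.00. By class their medians ran from -0.16 in pericyte-like cells (2 genes) to 0.59 in monocyte-like cells (1 gene). They were 0.55 in endothelial-like, 0.50 in microglia-like, 0.01 in homeostatic astrocyte-like and 0.02 in precursor-like cells. Over all genes tested the medians by class ran from -0.0084 to 0.0041. Where a difference did not pass, its 95% interval, taken as normal around the log2 fold change, is given for the genes that the levels turn on. Border-associated macrophage-like cells held none of the genes above the filter. Among the 43 pairs with at least 5 CPM the groups did not overlap in 2, Sema3c in reactive astrocyte-like cells and Cspg4 in pericyte-like cells, where 2.52% and 5.34% of all genes of that level in those classes did not overlap, and 3.68% did not over all classes together.

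Tnc in fibroblast-like cells was 41.3, 152, 105 and 34.2 CPM in control mice 1 to 4 and 149, 209, 124 and 184 CPM in ancrod mice 1 to 4. Control mice 1 and 4 were low, and control mouse 2 lay within the range of the ancrod mice, so that the groups overlapped. The log2 fold change was 1.02 (SE 0.44, edgeR adjusted p = 0.324, 95% interval 0.17 to 1.88), with 0.69 within batch 1 and 2.43 within batch 2, where there was 1 mouse per group. Within-batch values here and for the genes that follow are log2 ratios of the mean CPM of the groups and not edgeR values. With each mouse left out in turn the log2 fold change ran from 0.74 (without control mouse 4) to 1.58 (without control mouse 2). The makeup of the class varied between mice as well. The dividing Mmp3-led cluster, with 199.5 CPM Tnc when pooled, was 6.49 to 9.70% of fibroblast-like cells in control and 8.89 to 21.6% in ancrod mice, which overlapped. The Penk-led cluster, with 23.3 CPM Tnc when pooled, was 5.08 to 29.3% in control and 15.1 to 19.5% in ancrod mice. The part of this makeup in the difference was not tested. In reactive astrocyte-like cells Tnc was 80.3, 252, 37.1 and 75.0 CPM in control and 192, 167, 140.2 and 128 CPM in ancrod mice. The highest value was again control mouse 2, and the difference did not pass (0.47, SE 0.40, 95% interval -0.31 to 1.25, edgeR adjusted p = 1.00). The value was 1.24 without control mouse 2 and 0.21 without control mouse 3, and 0.11 at Leiden resolution 1.

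Summed over all kept cells, Tnc was the only one of the 10 genes whose groups did not overlap, at 9.79, 19.3, 3.36 and 7.61 CPM in control and 29.9, 26.4, 35.0 and 50.3 CPM in ancrod mice. The mean was 3.53 times higher with ancrod (10.0 ± 6.75 and 35.4 ± 10.5 CPM, n = 4 each), 2.81 times within batch 1 and 6.61 times within batch 2. Groups of 4 mice did not overlap for 8.16% of 13929 genes in this sum, 3.42% higher and 4.74% lower with ancrod. Fibroblast-like cells, which held most Tnc UMIs, made up 3.17 ± 1.73% of cells in control and 7.32 ± 4.27% in ancrod mice (difference 4.15 percentage points, 3.53 in batch 1 and 6.00 in batch 2, two-sided exact permutation p = 0.143, adjusted p = 0.238 over 15 classes). Reactive astrocyte-like cells, which held most of the remaining Tnc UMIs, made up 1.70 ± 0.505% and 3.79 ± 1.45% (two-sided exact permutation p = 0.0857, adjusted p = 0.214 over 15 classes, 2.83 percentage points in batch 1 and -0.16 in batch 2). The summed value thus joins the number of such cells with the level within each class, and within either class the groups overlapped. The study's methods describe a like trend for recovered reactive fibroblasts and call easier dissociation after reduced fibrosis the likely reason. Its imaging found fewer activated perivascular fibroblasts in the lesion core with ancrod. The part of dissociation in the summed value was not tested.

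Sema3c in reactive astrocyte-like cells was 3.74, 2.45, 5.17 and 2.62 CPM in control and 11.3, 12.96, 5.98 and 5.78 CPM in ancrod mice. All ancrod mice lay above all control mice, by 1.48 on the log2 scale (SE 0.35, edgeR adjusted p = 0.983), with 1.41 in batch 1 and 1.14 in batch 2, on 168 UMIs in all. Summed fibroblast markers were also higher in these cells with ancrod, at 80.1 to 94.9 CPM in control and 114 to 263 CPM in ancrod mice, whereas summed endothelial markers were 24.1 to 35.1 and 20.6 to 34.1 CPM, and the part of such RNA was not tested. In endothelial-like cells, the named class with most of its UMIs, Sema3c was 1001, 676, 715 and 659 CPM in control and 508, 825, 633 and 471 CPM in ancrod mice, which overlapped (-0.33, SE 0.19, 95% interval -0.70 to 0.04, edgeR adjusted p = 0.627, -0.28 in batch 1 and -0.48 in batch 2). Endothelial-like cells were 14.6 ± 0.897% of cells in control and 7.95 ± 3.01% in ancrod mice (two-sided exact permutation p = 0.0286, the smallest the design allows, adjusted p = 0.143 over 15 classes, -8.17 percentage points in batch 1 and -2.22 in batch 2). The unnamed Gkn3-led cells, highest in Sema3c among the vessel clusters, are outside this level, test and share. Over all unnamed cells Sema3c was 660, 423, 611 and 471 CPM in control and 276, 452, 386 and 509 CPM in ancrod mice. These values overlapped and were not tested.

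Cspg4 in pericyte-like cells was 539, 552, 546 and 604 CPM in control and 387, 503, 486 and 503 CPM in ancrod mice, so that the ancrod mice were all lower than the control mice. The difference was small, -0.21 on the log2 scale (SE 0.11, edgeR adjusted p = 0.576), and -0.25 in batch 1 and -0.26 in batch 2. Summed fibroblast markers in pericyte-like cells were 824 to 1046 CPM in control and 1243 to 1536 CPM in ancrod mice. Summed microglia markers were 1600 to 1698 and 1747 to 2231 CPM. Only 9 of the 10 microglia markers were highest in microglia-like cells. Their sum was 2030 CPM in endothelial-like and 4362 CPM in fibroblast-like cells of control mice, so it does not stand for microglial RNA alone. The part of RNA from other cells in the Cspg4 value was not tested.

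Vcan in monocyte-like cells was 156, 188, 221 and 147 CPM in control and 424, 214, 228 and 231 CPM in ancrod mice. Ancrod mouse 1 stood far above the others, and control mouse 3 lay within the ancrod range (log2 fold change 0.59, SE 0.21, edgeR adjusted p = 1.00, 0.61 in batch 1 and 0.66 in batch 2). Without ancrod mouse 1 the log2 fold change was 0.28. Summed fibroblast markers in monocyte-like cells were 26.1 to 40.2 CPM in control and 38.5 to 93.5 CPM in ancrod mice, and summed neuron markers 1.02 to 5.80 and 5.98 to 21.5 CPM, and their part in the Vcan value was not tested. In fibroblast-like cells Vcan was 392, 377, 377 and 305 CPM in control and 305, 252, 337 and 334 CPM in ancrod mice, with control mouse 4 among the ancrod values (-0.23, SE 0.13, edgeR adjusted p = 0.414, -0.36 in batch 1 and 0.13 in batch 2). Its levels in precursor-like cells were 823, 668, 783 and 822 CPM in control and 829, 642 and 712 CPM in ancrod mice 1, 3 and 4, which overlapped (-0.10, SE 0.19, 95% interval -0.47 to 0.28).

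Sema3a in fibroblast-like cells was 138, 94.8, 146 and 173 CPM in control and 98.5, 119.9, 133 and 102.5 CPM in ancrod mice, with control mouse 2 the lowest of all (-0.27, SE 0.17, edgeR adjusted p = 0.464, -0.11 in batch 1 and -0.76 in batch 2). Tnr in precursor-like cells was 1954, 2900.0, 2130 and 2805 CPM in control and 3223, 2439 and 1807 CPM in ancrod mice 1, 3 and 4, with the ancrod mice at both ends of the range (0.02, SE 0.25, 95% interval -0.46 to 0.50). Tnr in microglia-like cells differed at an unadjusted p of 0.0170 (1.25, SE 0.44, edgeR adjusted p = 0.963), at 0.240 ± 0.123 CPM in control and 0.561 ± 0.217 CPM in ancrod mice. These groups did not overlap, but the values rested on 105 UMIs over 8 mice. They lay below the 5 CPM at which non-overlap was counted, and no share of all genes was computed at such levels. Free RNA held 26.4 CPM Tnr in control and 37.4 CPM in ancrod mice (means over 4), and summed neuron markers in microglia-like cells were 4.68 to 7.12 CPM in control and 7.95 to 18.1 CPM in ancrod mice, also without overlap. The part of such RNA in the value was not tested.

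Bcan in homeostatic astrocyte-like cells was 1008, 1032, 916 and 797 CPM in control and 771, 882, 956 and 1027 CPM in ancrod mice, with nearly the same range in both groups (-0.03, SE 0.13). Cspg5 in the same cells was 1583, 1596, 1879.8 and 1544 CPM in control and 1704, 1593, 1609 and 1801 CPM in ancrod mice (0.04, SE 0.11). Ncan in reactive astrocyte-like cells was 415, 401, 253 and 520.5 CPM in control and 307, 401, 351 and 506 CPM in ancrod mice (-0.03, SE 0.21). In precursor-like cells, where its mean was highest, Ncan was 574 ± 232 CPM in control (n = 4) and 356 ± 229 CPM in ancrod mice (n = 3), which overlapped (-0.69, SE 0.44, 95% interval -1.56 to 0.18, edgeR adjusted p = 0.999, -1.39 in batch 1 and 0.24 in batch 2). The Serpina3n-led cells, which held most of the Ncan of this class, were 8, 6, 6 and 11 of 17, 21, 17 and 23 cells in control mice 1 to 4 and 9, 4 and 7 of 15, 24 and 29 cells in ancrod mice 1, 3 and 4, and the part of this makeup was not tested. For these proteoglycans of astrocytes the 95% interval of the difference was -0.27 to 0.22 for Bcan, -0.18 to 0.27 for Cspg5 and -0.44 to 0.37 for Ncan in reactive cells on the log2 scale. Acan in fibroblast-like cells was 3.95, 12.2, 0.495 and 1.29 CPM in control and 2.39, 0.653, 1.95 and 53.1 CPM in ancrod mice, so that its positive log2 fold change of 1.68 (SE 1.27, edgeR adjusted p = 0.561) came from ancrod mouse 4, and without that mouse it was -1.44. The log2 ratio of the mean CPM within batch 1 was -1.74.

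**Figure D5:**
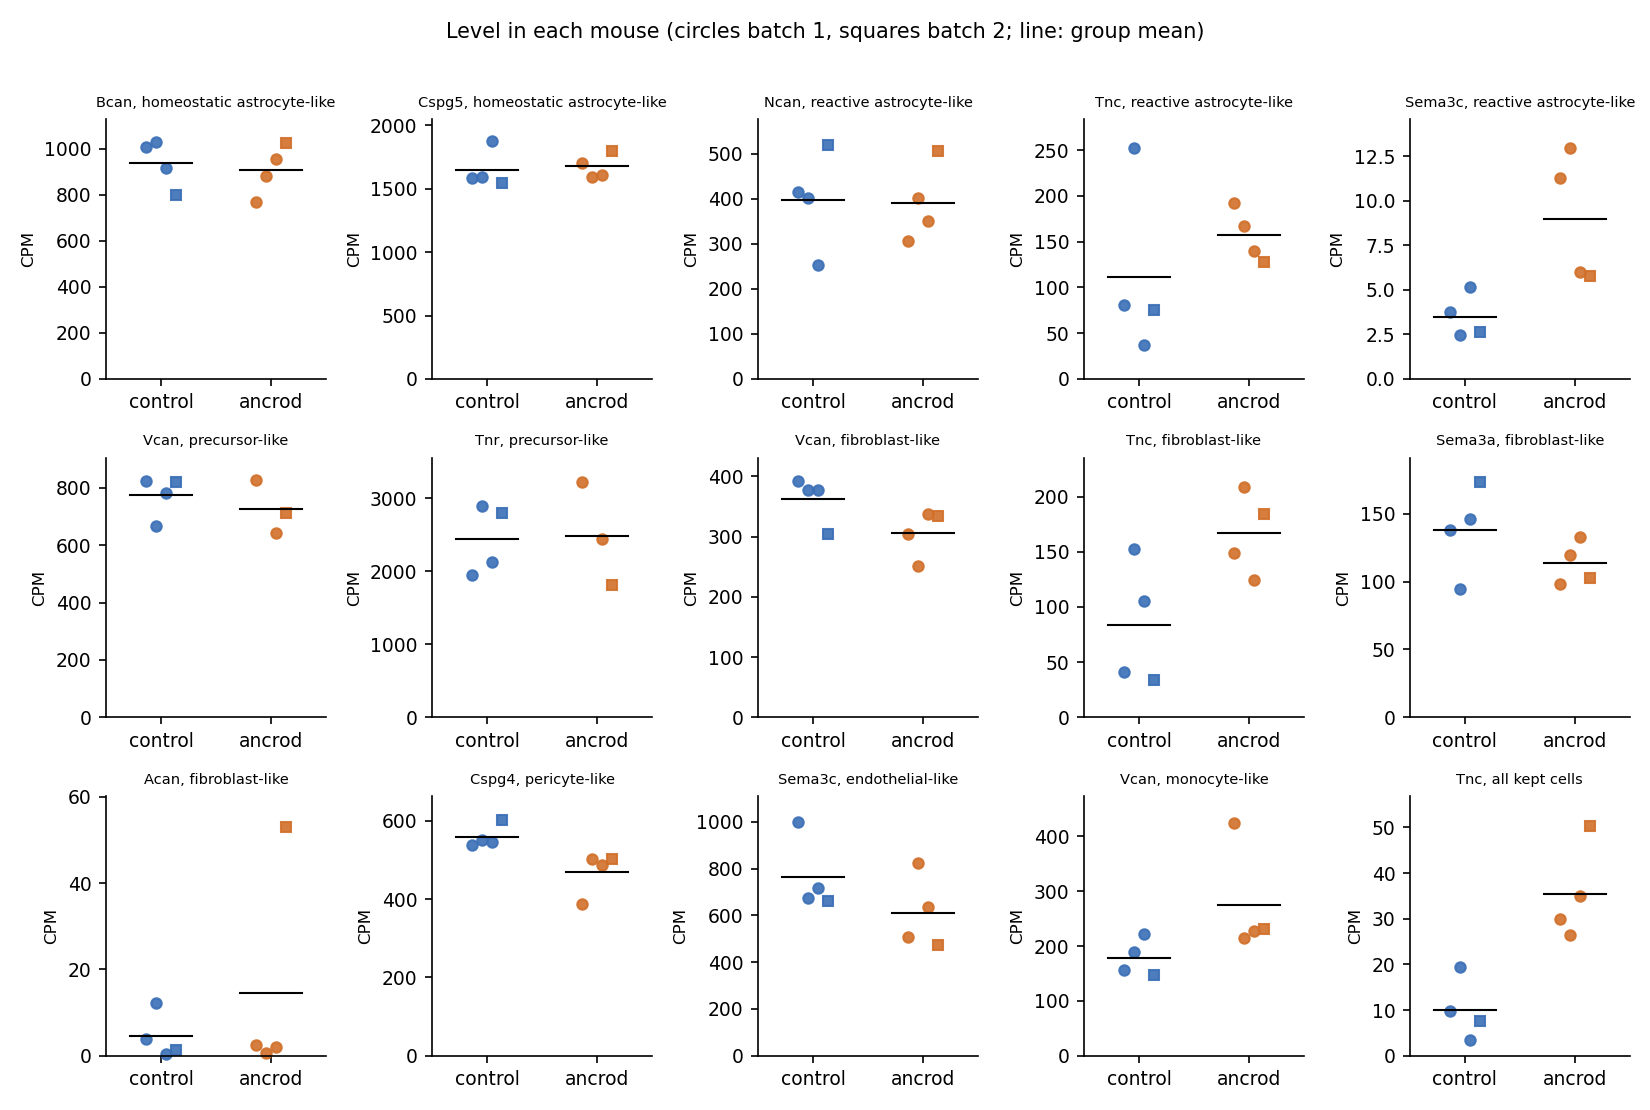
CPM (vertical axes, from 0) in each control (blue) and ancrod (orange) mouse for 14 pairs of gene and class and for Tnc over all kept cells, with circles for batch 1, squares for batch 2 and a line at the group mean. The groups are apart for Sema3c in reactive astrocyte-like cells, Cspg4 in pericyte-like cells and Tnc over all kept cells, and overlap in the other 12 panels.

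The genes around these proteoglycans were read from 8 lists with 63 genes. Between reactive and homeostatic astrocyte-like cells, chondroitin sulfate synthesis was mixed, with 3 of 13 genes higher and 5 lower (median log2 fold change -0.27). Csgalnact1 and Xylt1, which start the chains, were lower (-1.998 and -1.11), and the polymerizing factor gene Chpf was higher (1.00). The sulfotransferases had 2 of 4 tested genes higher and 1 lower, Chst7 at 0.91, Chst14 at 0.80 and Chst11 at -0.30. Hyaluronan synthases and link proteins had 3 of 4 tested genes higher and 1 lower, led by the synthase gene Has2 (4.72) and the link protein gene Hapln4 (2.73), while Hapln1 was lower (-1.32). Of the lectican-cleaving proteases 3 of 4 tested were higher, Adamts4 by 4.04, Adamts1 by 2.24 and Adamts5 by 1.60, and Adamts9 was lower (-0.60).

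The list of proteoglycan receptors and related genes had 0 of 5 tested genes higher and 2 lower in reactive cells, Ptprd (-1.63) and Ptprz1 (-0.69). Semaphorin receptors had 2 of 7 higher, Nrp2 (2.78) and Plxnd1 (1.82), and 2 lower, Plxna4 (-1.33) and Nrp1 (-0.62). Both other class 3 semaphorins tested were higher, Sema3b (3.65) and Sema3e (1.41). Of 5 other axon growth inhibitors tested, Rtn4 (1.59), which encodes Nogo, and Slit2 (1.29) were higher and 3 were lower, among them Omg (-1.90) and Rgma (-1.37). Each value is an edgeR log2 fold change that passed an adjusted p under 0.05 over all genes tested, with the background of calls given above.

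Between precursor-like and astrocyte-like cells 45.3% of all genes were called, 22.4% higher and 22.9% lower, and several of the lists lay near these shares. The sulfotransferases had 4 of 5 tested genes higher and none lower, with a median log2 fold change of 2.10. They were Chst3 (3.77), Chst15 (3.32), Chst7 (2.10) and Chst11 (1.73), the first being a chondroitin 6-sulfotransferase. Chain synthesis had 4 of 13 genes higher and 3 lower, led by Ust (5.25), a uronyl 2-sulfotransferase, Chsy3 (2.47), Xylt1 (1.96) and Dse (1.56). Hyaluronan synthases and link proteins had 2 of 3 tested genes higher, Has2 (2.94) and Hapln3 (1.28), and Hapln1 lower (-1.33). The other class 3 semaphorins tested were both higher, Sema3d, at 542 ± 172 CPM in precursor-like cells (n = 7), and Sema3e (4.69). Proteoglycan receptors, a list that includes the Nogo receptor partner Lingo1, had 3 of 5 tested genes higher and 1 lower (Lingo1 2.55, Ptprd 1.12, Ptprs 0.40 and Ptprf -0.80), semaphorin receptors 3 of 7 higher and 1 lower (Plxna4 1.45, Nrp2 1.12, Plxna3 0.91 and Nrp1 -1.59), axon growth inhibitors 2 of 6 higher and 1 lower (Slit2 3.47, Efnb3 2.61 and Rgma -1.99), and proteases 1 of 4 higher (Adamts1 0.88).

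Between ancrod and control mice none of 385 tests of list genes in 11 classes passed in edgeR, and 40 (10.4%) had an unadjusted p under 0.05, beside 5.98% of the tests over all genes in all classes. The largest numbers lay in pericyte-like cells (10 of 39 tests, where 9.57% of all genes had such a p) and endothelial-like cells (7 of 43, where 8.0% did), followed by homeostatic astrocyte-like cells (5 of 37, where 5.23% did) and fibroblast-like cells (4 of 50, where 14.7% did). The smallest unadjusted p belonged to proteases in pericyte-like cells, Adamts4 (log2 fold change 1.31, SE 0.27, edgeR adjusted p = 0.0718) and Adamts9 (1.12, SE 0.26, edgeR adjusted p = 0.101). In these cells the summed fibroblast and microglia lists were higher with ancrod, with the limit of the microglia list given above. In fibroblast-like cells Has2 (0.69, SE 0.21, edgeR adjusted p = 0.251) and Adamts15 (-0.62, SE 0.21, edgeR adjusted p = 0.268) did not pass.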

How the data were processed

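Single-cell suspensions of 8 cortices were sequenced as 10x 3′ libraries, 1 per mouse. The authors deposited unfiltered matrices of UMI counts (genes by droplets), for which the submitters' processing notes name Cell Ranger 7.1.0 and GRCm39. No annotation of cells was used here. The depth of the libraries, the number of cells in a class and the number of mice set the precision, and intervals cover the spread between these mice.

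Droplets with at least 2000 UMIs and under 20% mitochondrial UMIs were kept (46216), and 2144 doublets were removed by similarity to simulated doublets at 0.8% per 1000 cells. Cells were clustered with leidenalg 0.10.2 (igraph 0.11.9, scikit-learn 1.9.0, Python 3.11.15) on 3000 variable genes and 20 principal components with 20 neighbours at resolution 2, and lineages were clustered again within themselves. The 10 genes, the list genes and mitochondrial genes were left out of the clustering. Classes were named from marker lists, by rules set after the clusters had been seen, and clusters that failed them stayed unnamed.

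UMI counts were summed per mouse and class with at least 10 cells and tested with edgeR 4.0.16 (quasi-likelihood, TMM scaling, filterByExpr, Benjamini-Hochberg over all genes of a comparison) in R 4.3.3, with mouse as a block for contrasts between classes, and with DESeq2 1.42.0 as an alternative. Shares of cells with a UMI were read after thinning each cell to 2000 UMIs. Shares of classes were compared by two-sided exact permutation over 70 arrangements. The scripts were tested on simulated counts. All 10 genes are reported. From each of 8 lists up to 4 genes past the threshold with the largest fold are named for contrasts between classes. For ancrod against control no list gene passed, and only 4 list genes, in pericyte-like and fibroblast-like cells, are named. For each of the 10 genes the 3 genes with the closest pattern are named. The genes and lists were chosen with earlier results of these data known. Alternatives were doublets kept, another filter on cells, Leiden resolution 1, other scaling and filters, a batch term, a replicate block and each mouse left out.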

Additional observations from a re-analysis of the deposited data

Results flagged for a closer look

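Gene and class pairs with a mean of at least 20 CPM were screened for mice apart from their group. In 52 such groups of 4 mice, 6 held a mouse that stood far from the other 3 of its group by Dixon's criterion. Acan in fibroblast-like cells, with a mean of 9.50 CPM and 53.1 CPM in ancrod mouse 4, lay below that level and was not screened. Chance gives this in about 1 in 20 groups. Ncan in homeostatic astrocyte-like cells was 396 CPM in ancrod mouse 4, above 218 to 244 CPM in the other ancrod mice. Cspg5 in the same class was 1879.8 CPM in control mouse 3, above 1544 to 1596 CPM in the other control mice. Cspg5 in neuron-like cells was 125 CPM in ancrod mouse 2, above 79.2 to 86.0 CPM.

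Vcan in monocyte-like cells was 424 CPM in ancrod mouse 1, above 214 to 231 CPM in the other ancrod mice. Cspg4 in pericyte-like cells was 387 CPM in the same mouse, below 486 to 503 CPM. Sema3c in endothelial-like cells was 1001 CPM in control mouse 1, above 659 to 715 CPM in the other control mice. No mouse stood apart in more than 2 of these values.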

How the results depend on the processing

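Over 36 results and their alternatives 532 values were computed, of which 501 kept the direction and the side of the threshold. No alternative called any of the 10 genes between ancrod and control mice. Of the 10 genes, 7 or 8 were called between reactive and homeostatic astrocyte-like cells (7 in the report) and 5 to 7 between precursor-like and astrocyte-like cells (6 in the report). With doublets kept, Ncan was called higher in precursor-like cells (0.64, edgeR adjusted p = 0.0041). Without control mouse 1 Tnc was called lower there (-1.10, edgeR adjusted p = 0.00404), and without ancrod mouse 1 Sema3c was called higher (2.52, edgeR adjusted p = 0.0484). With each mouse left out the Sema3c value ran from 0.80 to 2.52, and its lowest value under other settings was 0.58. Control mouse 1 held 114.6 CPM Sema3c in precursor-like cells, the highest of these mice.

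The reversed values belonged to differences that had not passed the test. Cspg4 between reactive and homeostatic astrocyte-like cells was -0.52 at Leiden resolution 1. For ancrod against control, Ncan in reactive astrocyte-like cells was 0.0188 with doublets kept and 0.19 with cells filtered at the inflection point of the UMI curve, Cspg5 there was -0.0578 and Tnr in precursor-like cells -0.0384 under that filter, Vcan in precursor-like cells was 0.17 with doublets kept, and Acan in fibroblast-like cells was -0.19 with a batch term. With each mouse left out in turn the log2 fold changes ran from -0.10 to 0.0470 for Bcan, -0.000205 to 0.12 for Cspg5 and -0.34 to 0.0571 for Ncan in homeostatic astrocyte-like cells, from -0.25 to 0.0598 for Bcan, -0.11 to 0.0847 for Cspg5 and -0.20 to 0.13 for Ncan in reactive astrocyte-like cells, from -0.23 to 0.22 for Tnr in precursor-like cells and from -1.44 to 2.87 for Acan in fibroblast-like cells. The cause was not tested.

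By share of UMIs, Ncan led in reactive in place of homeostatic astrocyte-like cells with doublets kept (36.5 against 35.2%) and without control mouse 1 (39.0 against 38.3%). This share under other settings, and shares of cells without thinning, were added after seeing the data. Over all genes, between ancrod and control mice edgeR called 1 in fibroblast-like and 1 in pericyte-like cells, DESeq2 175 and 92, and a batch term 2 and 21. In pericyte-like cells there were 115 without a filter on low counts, 49 with doublets kept, 7 at the inflection point and 0 to 57 with each mouse left out. DESeq2 called 11 in border-associated macrophage-like and 12 in endothelial-like cells, where edgeR called 0, and the former had 12 without a filter on low counts. In the other classes with 0 no alternative called over 4.

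Whether replicate numbers pair the mice cannot be decided from 4 pairs, of which pair 4 is also the only pair of batch 2. Same-numbered mice correlated by -0.31 to 0.35 in deviations from their group means over 4 classes. Pair 4 was the highest pair in fibroblast-like (0.20) and endothelial-like cells (0.35). From 0 to 4 of 8 mice were closest to their own number. A replicate block called 0 of the 10 genes in every class, and over all genes 57 in pericyte-like and 2 in fibroblast-like cells, against 1 each, and 2 in border-associated macrophage-like cells, against 0.

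Precursor-like and neuron-like cells were few, so differences there had wide intervals. With 4 mice per group the exact test of a class share cannot go below 0.0286.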

Other observations

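A group of 71 cells clustered with the precursor-like cells but carried genes of young inhibitory neurons: Dlx1 was found in 90.1% of them, Gad2 in 90.1% and Dcx in 97.2%. These cells, led by Bcl11a, Stmn2 and Sp9, came from control mice 1, 2 and 4 and ancrod mouse 1 and were left unnamed. Pooled, they held 337 CPM Vcan and 136 CPM Ncan but 1.01 CPM Tnr and 1.01 CPM Cspg4, whereas the named precursor-like cells held 2421 CPM Tnr and 118 CPM Cspg4 when pooled in the same way.

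Cspg4 was uneven among microglia-like cells. Subclusters led by Cd5l and Igf1 (1441 cells) held 19.3 ± 4.35 CPM and dividing cells led by Top2a and Mki67 (514 cells) 35.7 ± 8.61 CPM (n = 8 mice), while the subcluster led by Ints6 and Tubb1 (2032 cells) held 0.297 ± 0.327 CPM, in the same libraries.

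An unnamed cluster of 506 cells led by the pericyte genes Rgs5, Abcc9 and Vtn held 129 ± 30.2 CPM Cspg4 together with 532 ± 89.3 CPM of the endothelial transcript Sema3c. Named pericyte-like cells held 3.80 CPM Sema3c, and endothelial-like cells held 2.02 CPM Cspg4. The part of doublets left in the unnamed cluster was not tested. An unnamed astrocyte subcluster of 596 cells led by Nnat, Cst3 and Apoe held 1015 ± 103 CPM Bcan and 2227 ± 302 CPM Cspg5 (n = 7 mice).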
